A study of Mus musculus with 6 samples.

Results

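The genes described here are 10 imprinted genes that act on growth: Mest, Peg3, Igf2, H19, Dlk1, Meg3, Plagl1, Cdkn1c, Grb10 and Ndn. They were taken by name, with earlier results of these data known, and 8 of the 10 have a row among the 35122 genes of the count table. The noncoding genes H19 and Meg3 are not analysed here. Epididymal fat pads of 3 control and 3 aPU.1KO mice were digested with collagenase, the floating adipocytes were collected, and their RNA was sequenced, each mouse giving 1 library. All 6 were chow-fed male C57BL/6 mice, labelled as 10 to 11 months old, that carried the floxed PU.1 allele (PU.1 fl/fl). The aPU.1KO mice (AdipoqCre_PU.1 fl/fl) also carried Cre under the adiponectin promoter, which is active in adipocytes, so that Spi1, the gene of the ETS factor PU.1, was the target in those cells and not in other cells of the fat pad. The control mice carried no Cre, so the Cre transgene itself and the loss of PU.1 cannot be told apart.

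An imprinted gene is expressed mainly from the copy inherited from the father or mainly from that inherited from the mother, according to DNA methylation laid down in the germ line and kept through later divisions. Many paternally expressed genes, such as Igf2, promote fetal growth, and several maternally expressed genes, such as Cdkn1c and Grb10, restrain it. Most are high in the fetus and fall after birth. In fat, Mest is known for its rise when adipocytes enlarge and for its wide variation between genetically identical mice, and Dlk1 (Pref-1) marks preadipocytes and is turned off as they differentiate.

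The libraries held between 20550252 and 24310144 counts, apart from control mouse 1 with 69283842. Spi1 stood at 24.3, 6.35 and 26.7 normalized counts (CPM, counts relative to the library total scaled by the TMM method of edgeR) in control mice 1 to 3 and at 3.20, 1.22 and 4.17 CPM in aPU.1KO mice 1 to 3, a log2 fold change (log2FC, aPU.1KO relative to control) of -2.75 (standard error, SE, 0.64) whose adjusted p was 0.0788 by edgeR's quasi-likelihood test and 7.65e-05 by DESeq2. These counts cover the whole gene, so reads from exons outside the targeted part are included. Summed adipocyte markers ran from 25152 to 27956 CPM in the control mice and from 29576 to 32415 CPM in the aPU.1KO mice, with 6 of the 8 higher and 1, Lep, lower in every aPU.1KO mouse, and the fraction also held RNA of other cells. The 8 macrophage markers summed to 385 to 1310 CPM in control and 180 to 269 CPM in aPU.1KO mice, with 7 of the 8 lower in every aPU.1KO mouse. Within each group their sum was lowest in the mouse with the lowest Spi1, control mouse 2 (385 CPM) and aPU.1KO mouse 2 (180 CPM). The 10 progenitor and fibroblast markers summed to 1417 to 1884 CPM in control and 749 to 1071 CPM in aPU.1KO mice, with 7 of the 10 lower in every aPU.1KO mouse. The 6 hepatocyte markers summed to 42.6 to 64.3 CPM in control and 18.5 to 24.9 CPM in aPU.1KO mice, with 6 of the 6 lower in every aPU.1KO mouse. The part of these cells in the values of Spi1 and of the members was not tested. In such bulk RNA fewer cells of a type and less RNA per cell cannot be told apart.

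Mest, which encodes a membrane protein of the endoplasmic reticulum with an alpha/beta hydrolase fold, lies on the plus strand of chromosome 6 (ENSMUSG00000051855, 30723547 to 30748465 in GRCm38). The sequence set below is shown because Mest and Plagl1 were the only members whose control and aPU.1KO mice did not overlap. RefSeq gives windows of 300 bases, from 250 before to 50 after a transcript start, and CG dinucleotides, the letters at which imprints are methylated, are in capitals. Mest has an upstream start and, downstream, CG-richer starts with overlapping windows, of which 1 is shown, and Plagl1 has 1 start listed. All 3 are on the plus strand of GRCm38.p6.
Mest, chr6:30733256-30733555: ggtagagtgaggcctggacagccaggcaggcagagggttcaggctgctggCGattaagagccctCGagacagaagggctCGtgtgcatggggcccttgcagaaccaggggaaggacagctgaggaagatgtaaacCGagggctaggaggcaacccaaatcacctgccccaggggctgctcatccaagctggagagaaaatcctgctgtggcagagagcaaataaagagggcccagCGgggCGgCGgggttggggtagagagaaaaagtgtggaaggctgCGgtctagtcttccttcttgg
Mest, chr6:30737800-30738099: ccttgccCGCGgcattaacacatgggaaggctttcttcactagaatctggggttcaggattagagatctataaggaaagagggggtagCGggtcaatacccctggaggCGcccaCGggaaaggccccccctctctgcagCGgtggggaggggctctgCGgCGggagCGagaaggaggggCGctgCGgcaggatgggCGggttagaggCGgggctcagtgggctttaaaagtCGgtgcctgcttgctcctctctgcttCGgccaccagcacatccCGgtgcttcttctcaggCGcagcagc
Plagl1, chr10:13090582-13090881: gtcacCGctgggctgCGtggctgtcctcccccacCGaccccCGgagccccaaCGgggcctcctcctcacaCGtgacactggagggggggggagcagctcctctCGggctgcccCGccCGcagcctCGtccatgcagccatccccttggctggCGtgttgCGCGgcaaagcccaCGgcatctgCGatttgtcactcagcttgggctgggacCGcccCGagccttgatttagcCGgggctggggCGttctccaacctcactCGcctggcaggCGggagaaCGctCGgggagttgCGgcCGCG
The upstream Mest window holds 8 CG dinucleotides, the second Mest window 17 and the Plagl1 window 26, where the median over 32851 such windows is 7. Methylation was not measured in these libraries. The letters GAGGAA, which PU.1 favours at its binding sites, were searched on both strands. They occur in 28.3% of all windows and in 5 of 15 windows of the members (the overlapping Mest windows counted separately), in Mest (the upstream window), Peg3 and Igf2. The longer GAGGAAGT, which contains GAGGAA, occurs in 3.2% of all windows and in 0 of those 15. Such a match is a description of the letters in these windows.

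Inside the Mest gene, at chr6:30741299-30741396, lies the hairpin of the microRNA miR-335, which shares 0 exon bases with Mest. Its mature strands are given from RefSeq with the seed, bases 2 to 8, in capitals. They are shown because the microRNA lies within the transcribed Mest gene, although microRNAs are not analysed here.
miR-335-5p: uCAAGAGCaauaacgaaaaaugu
miR-335-3p: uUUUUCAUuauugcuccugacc

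Mest was the most abundant member and was lower in the aPU.1KO mice. It stood at 924, 996 and 1066 CPM in control mice 1 to 3 and at 659, 554 and 890 CPM in aPU.1KO mice 1 to 3. The aPU.1KO mice were all below the lowest control mouse, although aPU.1KO mouse 3 was only just below control mouse 1. The group means were 995 ± 71.0 and 701 ± 172 CPM (SD, n = 3 each), and the fitted level in aPU.1KO mice was 70.4% of that in control mice. The log2FC of -0.51 (SE 0.18, 95% interval from -0.94 to -0.07) had an unadjusted p of 0.0279 and an adjusted p of 0.147 in edgeR's quasi-likelihood test, and an adjusted p of 0.0631 in DESeq2, so that it did not pass the threshold of 0.05 in either. The adjusted p of Mest was between 0.0611 and 0.393 over the 16 alternatives tried, in each of which Mest was lower in the aPU.1KO mice. Mest shares 912 exon bases with Copg2, which lies on the other strand, and whether counting used strand is not given in the sources used here. Copg2, a coat protein subunit of vesicle transport, stood at 73.0 to 85.5 CPM in control and 84.3 to 87.0 CPM in aPU.1KO mice, with a log2FC of 0.12 (SE 0.08, edgeR adjusted p = 0.391).

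**Figure D1:**
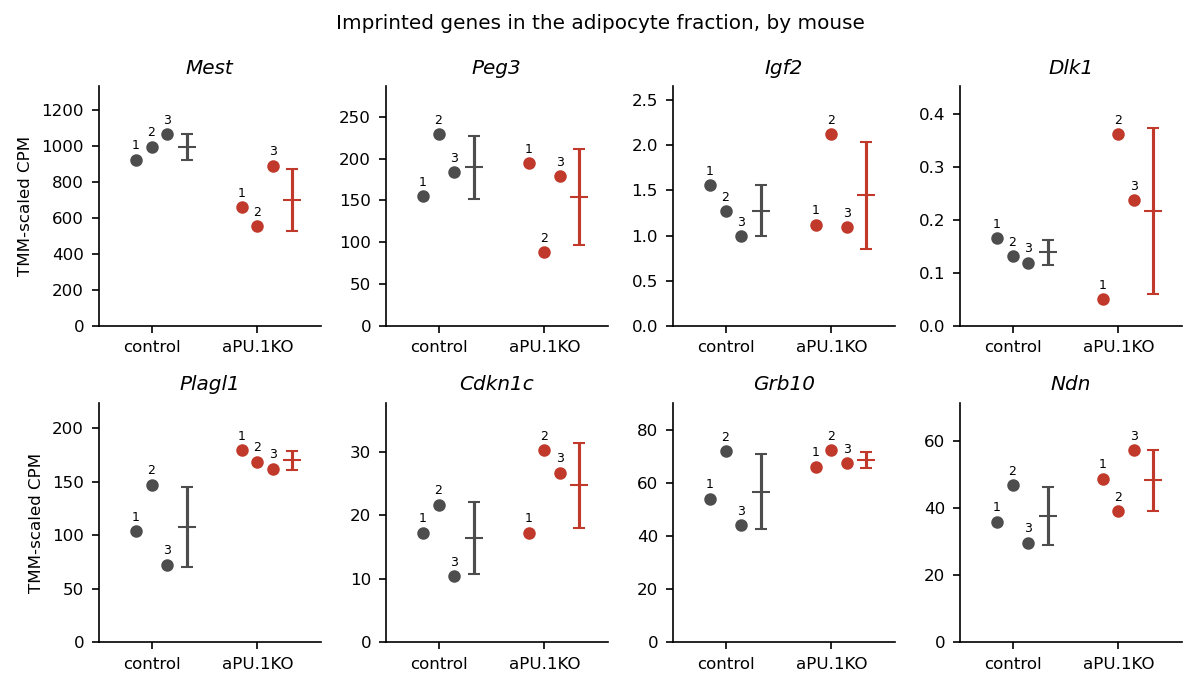
Each panel plots a member's TMM-scaled CPM (vertical axis, from 0) in the control (grey) and aPU.1KO (red) mice, with each numbered point a mouse and the bar the mean ± SD of 3 mice. Mest in the aPU.1KO mice (554 to 890 CPM) lies below all control mice and Plagl1 (162 to 179 CPM) above all of them, while the groups overlap in the other panels.

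Peg3, a large zinc finger protein expressed from the paternal copy, stood at 155, 229 and 184 CPM in control mice 1 to 3 and at 195, 88.3 and 179 CPM in aPU.1KO mice 1 to 3. The low value of aPU.1KO mouse 2 stood apart from the other 5, and the groups overlapped. The log2FC was -0.30 (SE 0.30, edgeR adjusted p = 0.565), and -0.02 without aPU.1KO mouse 2.

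Igf2, the fetal growth factor of the insulin family, was barely present. Its counts were 113, 29 and 25 in control mice 1 to 3 and 22, 47 and 23 in aPU.1KO mice 1 to 3, or 0.991 to 1.56 CPM in control and 1.09 to 2.12 CPM in aPU.1KO mice. The log2FC was 0.17 (SE 0.36, edgeR adjusted p = 0.797), with a 95% interval from -0.69 to 1.03, and it turned to -0.22 without aPU.1KO mouse 2, the mouse with the highest level. Igf2 shares 3596 exon bases with Gm49394 on the same strand, and Gm49394 had 3 counts or fewer in every library.

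Dlk1, the preadipocyte factor of the Notch ligand family, had 12, 3 and 3 counts in control mice 1 to 3 and 1, 8 and 5 counts in aPU.1KO mice 1 to 3. In 3 of the 6 libraries it was at or under 3 counts, taken here as the floor, and it was removed by the filter on low counts before the edgeR test. DESeq2, which kept it, gave a log2FC of 0.62 (SE 1.00) and an adjusted p of 0.780, so that no difference was detectable at this depth.

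Plagl1, a zinc finger factor that arrests the cell cycle and acts on other imprinted genes, was the member higher in every aPU.1KO mouse. It stood at 104, 147 and 72.5 CPM in control mice 1 to 3 and at 179, 169 and 162 CPM in aPU.1KO mice 1 to 3. The control mice were widely spread, whereas the aPU.1KO mice were close together above all of them. The log2FC of 0.66 (SE 0.24) had an unadjusted p of 0.0283 and an adjusted p of 0.148 in edgeR's quasi-likelihood test, and an adjusted p of 0.0720 in DESeq2. Its fitted level in aPU.1KO mice was 158% of that in control mice, with a 95% interval from 107% to 233%. Without control mouse 2, the highest control, the adjusted p was 0.0252, and over all alternatives it was between 0.0252 and 0.427.

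Ndn, which encodes necdin, a protein of the MAGE family that restrains cell cycle entry, stood at 36.0, 46.9 and 29.8 CPM in control mice 1 to 3 and at 48.8, 39.1 and 57.2 CPM in aPU.1KO mice 1 to 3. The groups overlapped, and the log2FC was 0.37 (SE 0.20, edgeR adjusted p = 0.297).

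Cdkn1c, the cyclin-dependent kinase inhibitor p57 and a maternally expressed brake on growth, stood at 17.3, 21.7 and 10.4 CPM in control mice 1 to 3 and at 17.3, 30.2 and 26.8 CPM in aPU.1KO mice 1 to 3. Control mouse 1 was at almost the same level as the lowest aPU.1KO mouse, and the groups overlapped. The log2FC was 0.59 (SE 0.30, edgeR adjusted p = 0.271), with a 95% interval from -0.13 to 1.32.

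Grb10, an adaptor that damps signalling from the insulin and IGF1 receptors, stood at 54.1, 72.0 and 44.1 CPM in control mice 1 to 3 and at 66.3, 72.3 and 67.6 CPM in aPU.1KO mice 1 to 3. Control mouse 2 was at the level of the aPU.1KO mice, so the groups overlapped. The log2FC was 0.28 (SE 0.17, edgeR adjusted p = 0.347).

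Among the 7 members tested, edgeR called 0 at an adjusted p under 0.05, where it called 0.237% of the 13925 genes tested (0.0575% higher and 0.18% lower), and DESeq2 called 0 of the 8 it fitted, where it called 11% of 16684 genes. limma-voom called 0, where it called 0.33% of all genes. At an unadjusted p under 0.05, edgeR had 1 member higher (Plagl1) and 1 lower (Mest), against 11.9% of all genes higher and 13.7% lower, or 25.7% in either direction. The groups did not overlap for 2 of the 7 members, 1 higher and 1 lower, against 16.7% of all genes higher, 15.5% lower and 32.1% in all, so these shares are near the background. The median log2FC was 0.28 over the 7 members and 0.01 over all genes tested, and 5 of the 7 were above 0, as were 52% of all genes.

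Within the control group, Plagl1, Cdkn1c, Grb10 and Ndn had their highest value in control mouse 2 and their lowest in control mouse 3. Control mouse 2 also had the lowest macrophage sum (385 CPM, against 1310 and 1270 CPM in control mice 1 and 3) and the lowest sums of progenitor and fibroblast (1417 CPM, against 1884 and 1682 CPM), lymphocyte (3.59 CPM, against 4.70 and 5.51 CPM), erythroid (587 CPM, against 619 and 786 CPM) and epididymal markers (0.0438 CPM, which is 1 count of Crisp1, against 0.413 and 1.03 CPM). It had the highest sums of mesothelial (23.0 CPM, against 12.4 and 5.27 CPM), mural (715 CPM, against 554 and 463 CPM), endothelial (726 CPM, against 633 and 496 CPM), hepatocyte (64.3 CPM, against 48.6 and 42.6 CPM) and dissociation response genes (3153 CPM, against 2792 and 2558 CPM). The part of these cells in the members' levels was not tested. In the aPU.1KO group mouse 2 was the lowest of its group for Mest, Peg3 and Ndn and the highest for Igf2, Dlk1, Cdkn1c and Grb10. It was the highest by little for Grb10 (72.3 CPM, against 66.3 and 67.6 CPM), and it was between the others for Plagl1. Its dissociation response genes summed to 5769 CPM, against 2558 to 3153 CPM in the control mice and 3705 and 2022 CPM in aPU.1KO mice 1 and 3. It also had the highest sums of its group for endothelial (643 CPM, against 303 and 396 CPM), erythroid (1144 CPM, against 352 and 883 CPM), mesothelial (10.3 CPM, against 8.44 and 8.24 CPM) and hepatocyte markers (24.9 CPM, against 21.0 and 18.5 CPM). Its sums were the lowest of the group for macrophage (180 CPM, against 269 and 245 CPM), mural (374 CPM, against 387 and 501 CPM) and epididymal markers (0, against 0.915 and 0.853 CPM). Of the mural markers, Acta2 was lowest in this mouse (47.6 CPM, against 198 and 217 CPM). Rgs5, Cspg4 and Notch3 were highest there, and Kcnj8 and Myh11 were in between. Of the macrophage markers, C1qa and Cd163 were highest in this mouse and the others lowest. The part of these in the members' levels was not tested either.

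The spread between mice differed from member to member. The standard deviation of log2 CPM for Mest was 0.10 in the control mice, at percentile 41 of all genes tested, and 0.35 in the aPU.1KO mice, at percentile 71.5. Plagl1 went the other way, from 0.51 (percentile 90.7) in control to 0.07 (percentile 14.0) in aPU.1KO mice, as did Grb10, from 0.35 (percentile 84.4) to 0.07 (percentile 11.9). The differences in spread between groups of 3 mice were not tested.

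Per kilobase of exon, the scale on which genes can be compared, the order of the mean levels in control mice was Mest, Peg3, Plagl1, Ndn, Cdkn1c, Grb10, Igf2 and Dlk1. Mest was at 252 ± 18.0 CPM per kilobase (SD, n = 3), above 99.0% of the genes tested. Peg3 at 14.2 ± 2.80, Plagl1 at 13.8 ± 4.81, Ndn at 10.2 ± 2.34, Cdkn1c at 8.07 ± 2.79 and Grb10 at 6.24 ± 1.55 CPM per kilobase formed a run in which the control ranges of neighbours overlap. Igf2 at 0.222 ± 0.05 and Dlk1 at 0.0245 ± 0.0042 CPM per kilobase were far lower, and their ranges overlap neither with each other nor with those above. In aPU.1KO mice Mest was still the highest, at 178 ± 43.6 CPM per kilobase, and Peg3, at 11.6 ± 4.31, came below Plagl1, Ndn and Cdkn1c. With the longest transcript of each gene as its length, Grb10 moved to the fourth place in control mice.

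**Figure D2:**
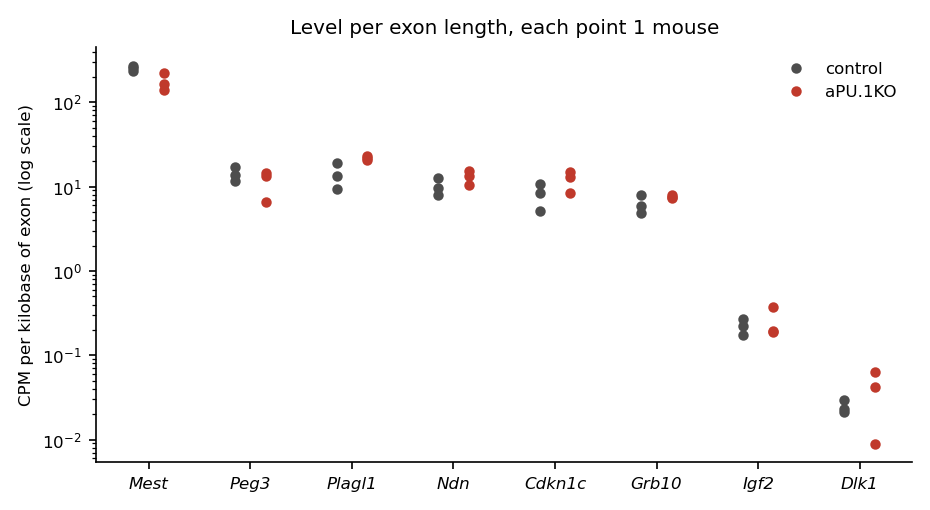
Level of each member in CPM per kilobase of exon (log scale) in control (grey) and aPU.1KO (red) mice, 1 point per mouse, in the order of the control means. Mest lies at 140 to 270, Peg3 to Grb10 between 4.86 and 22.9, and Igf2 and Dlk1 at 0.371 or lower.

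Mest was next set beside the genes whose pattern over the 6 mice was most like its own, measured by the root mean square difference of log2 CPM centred on each gene's mean. Among 11896 genes the median difference from Mest was 0.397. The 5 closest were Ociad2 (0.0371), Plekha7 (0.0714), Ptpn3 (0.0792), Tpm1 (0.0803) and Khdrbs3 (0.0806). Tpm1, a tropomyosin of actin filaments, stood at 65.2, 60.9 and 64.0 CPM in control mice 1 to 3 and at 42.7, 34.4 and 53.8 CPM in aPU.1KO mice 1 to 3. Of the 6 other members tested, Peg3 was the closest to Mest, at 0.309, and the other 5 were between 0.506 and 0.747, Igf2 among them although its level is below the limit set for the 11896 genes. Dlk1 was not compared.

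Lep, Sfrp5 and Bmp3 are genes known to vary together with Mest during fat expansion. Leptin, the hormone that reports fat mass and also on the list of adipocyte markers, stood at 4674, 4551 and 5029 CPM in control mice 1 to 3 and at 2855, 1565 and 3949 CPM in aPU.1KO mice 1 to 3. The groups did not overlap for Lep, lower in the aPU.1KO mice, with a log2FC of -0.77 (SE 0.32, edgeR adjusted p = 0.188). The secreted Wnt inhibitor Sfrp5 stood at 262 to 309 CPM in control mice and at 266, 61.9 and 353 CPM in aPU.1KO mice 1 to 3. In percent of the control mean, aPU.1KO mouse 2 was at 55.6% for Mest, 32.9% for Lep, 22.0% for Sfrp5 and 60.9% for the growth factor Bmp3. aPU.1KO mouse 3, the highest of its group for Mest at 89.4%, was also the highest for Lep at 83.1%, Sfrp5 at 126% and Bmp3 at 107%. Control mouse 3, the highest control for Mest at 107%, was also the highest for Lep and Sfrp5 but the lowest for Bmp3, at 93.6%. By the difference from Mest used above, Bmp3 was at 0.218, Lep at 0.273 and Sfrp5 at 0.616, where the median gene was at 0.397. edgeR called 0 of the 3 genes at an adjusted p under 0.05 and 1 (lower) at an unadjusted p under 0.05, where 13.7% of all genes were lower, and DESeq2 called 0, against 11% of all genes. Their median log2FC was -0.31, and it turned to 0.01 without aPU.1KO mouse 2.

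**Figure D3:**
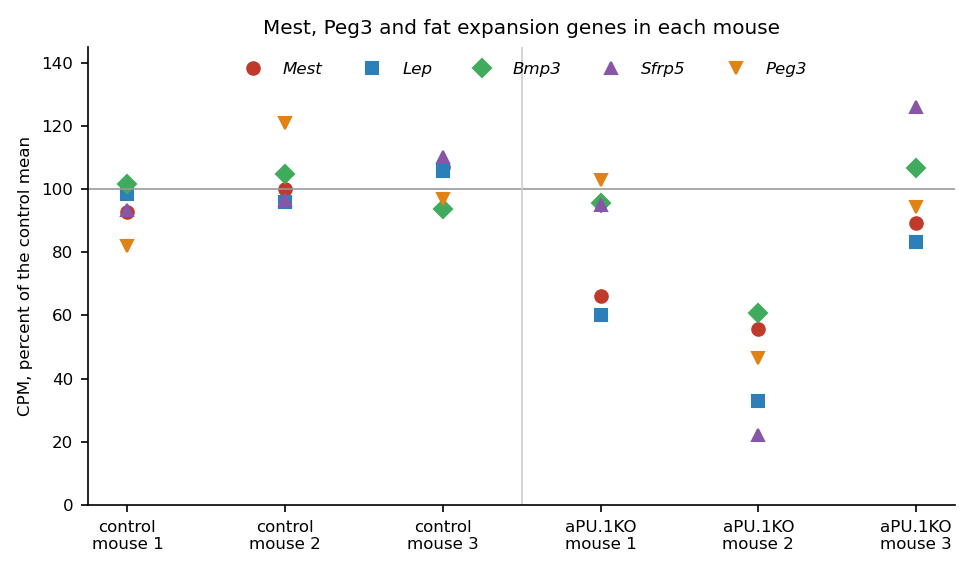
CPM of Mest, Lep, Bmp3, Sfrp5 and Peg3 in each mouse, in percent of that gene's control mean (vertical axis, line at 100%). In aPU.1KO mouse 2 all 5 lie at 60.9% or lower.

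Of the other imprinted genes, 41 of 56 with a row were tested. edgeR called 0 at an adjusted p under 0.05, and at an unadjusted p under 0.05 it had 6 higher and 7 lower, against 11.9% and 13.7% of all genes. DESeq2 called 4 higher and 4 lower of 47, against 3.51% and 7.48% of all genes. The 4 higher were Nnat, Blcap, Nap1l5 and Zrsr1, and the 4 lower were Igf2r, Kcnq1, Slc38a4 and Dhcr7. The median log2FC of 0.03 was close to that of all genes. The genes with the lowest p were Nnat and Blcap, which share a locus, with Nap1l5, Dhcr7 and Zrsr1. Nnat, which encodes the small membrane protein neuronatin, stood at 494, 612 and 512 CPM in control mice 1 to 3 and at 820, 756 and 801 CPM in aPU.1KO mice 1 to 3. Every aPU.1KO mouse was above every control mouse, with a log2FC of 0.55 (SE 0.11, edgeR adjusted p = 0.0764, DESeq2 adjusted p = 0.000513). Blcap, in whose intron Nnat lies, had a log2FC of 0.51 (SE 0.11), Nap1l5 one of 0.85 (SE 0.19) and the splicing factor relative Zrsr1 one of 0.39 (SE 0.10). Dhcr7, the last enzyme of cholesterol synthesis, had one of -0.67 (SE 0.17).

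**Figure D4:**
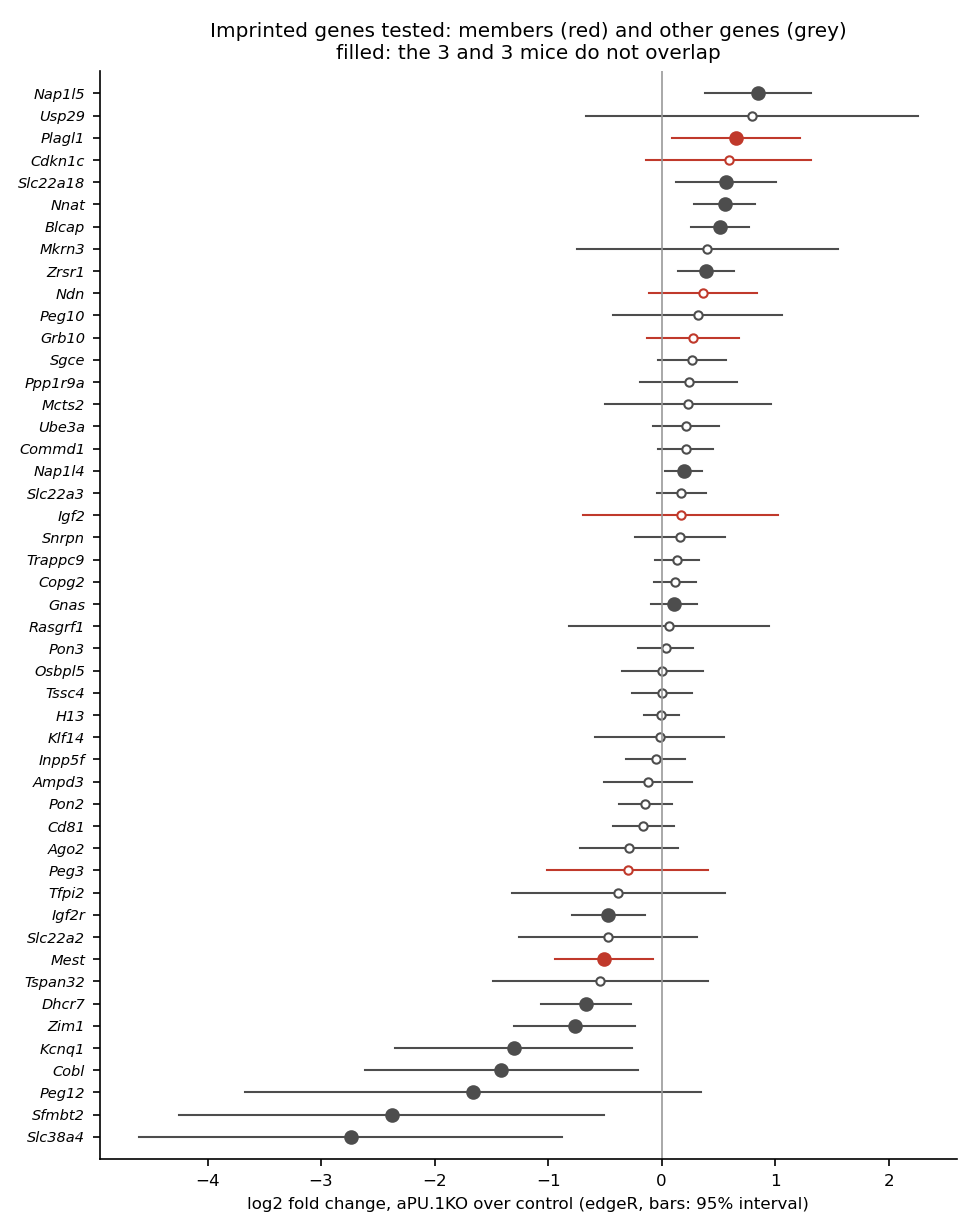
Log2FC (aPU.1KO over control) with its 95% interval from edgeR for the 7 members tested (red) and the 41 other imprinted genes tested (grey), with filled points where the 3 control and 3 aPU.1KO mice do not overlap. The values run from -2.74 for Slc38a4, which had 6 counts or fewer in every aPU.1KO mouse, to 0.85 for Nap1l5, with members between -0.51 and 0.66.

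Neighbours of the members in the same imprinted clusters were looked at after their values were known. Beside Mest, the maternally expressed Klf14, a transcription factor, had a log2FC of -0.02 (SE 0.24), and Copg2, given above, one of 0.12. Beside Peg3, Zim1 had one of -0.76 (SE 0.22, edgeR adjusted p = 0.105) and Usp29 one of 0.80 (SE 0.61). In the cluster of Cdkn1c, the potassium channel gene Kcnq1 had one of -1.30 (SE 0.44) and the transporter gene Slc22a18 one of 0.57 (SE 0.19), the ends of the range of its neighbours. Of the 9 genes tested in that cluster, Cdkn1c included, 5 were above 0 and 4 below, and the median was 0.0049. In the cluster of Ndn, Snrpn had one of 0.16 (SE 0.17), Ube3a one of 0.22 (SE 0.12), Mkrn3 one of 0.40 (SE 0.48) and Peg12 one of -1.66 (SE 0.85). Cobl, beside Grb10, had one of -1.41 (SE 0.51). Some of these rest on few counts. Peg12 had 33, 10 and 12 counts in control mice 1 to 3 and 0, 8 and 1 in aPU.1KO mice 1 to 3. Mkrn3 and Usp29 had 30 counts or fewer in every library, and Cobl had 4 to 14 counts in the aPU.1KO mice. Log2FC values of either sign thus occurred in the clusters of Mest, Peg3, Cdkn1c, Ndn and Grb10. Zim1, Kcnq1, Slc22a18 and Cobl, with Dhcr7 and Nap1l4 (log2FC 0.19, SE 0.07) of the Cdkn1c cluster, had an unadjusted p under 0.05 in edgeR, where 25.7% of all genes did, and since they were picked with their values known their number is not read against that share. DESeq2 gave Kcnq1 an adjusted p of 0.04996 and Dhcr7 one of 0.0104.

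The partners of the members in signalling and imprint upkeep were taken from lists. Of 19 genes of the IGF axis tested, edgeR called 0 at an adjusted p under 0.05, had 3 higher and 5 lower with an unadjusted p below that limit, and gave a median log2FC of -0.25. DESeq2 called 4 of 22 lower (Igf2r, Igfbp3, Igfbp6 and Grb14) and 0 higher. Over all genes these shares were 11.9% higher and 13.7% lower for edgeR's unadjusted p, and 3.51% higher and 7.48% lower for DESeq2. Igf2r, the imprinted receptor that clears IGF2, stood at 166, 138 and 137 CPM in control mice 1 to 3 and at 112, 88.7 and 118 CPM in aPU.1KO mice 1 to 3, with no overlap and a log2FC of -0.47 (SE 0.13, edgeR adjusted p = 0.104). The IGF binding proteins Igfbp3 and Igfbp6 both had log2FC values of -0.98 (SEs 0.20 and 0.31). Grb14, the adaptor related to Grb10, had one of -0.67 (SE 0.22), and Irs2, a substrate of the insulin receptor, one of 0.52 (SE 0.19). Progenitor, fibroblast and macrophage sums were lower in the aPU.1KO mice, as given above, and the part of these cells in the IGF axis values was not tested.

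Of 15 genes of the Notch pathway, to whose ligand family Dlk1 belongs, edgeR called 0 at an adjusted p under 0.05 and had 1 higher and 6 lower with an unadjusted p below it, with a median log2FC of -0.40. DESeq2 called 5 of 15 lower and 0 higher, against 7.48% of all genes lower in DESeq2 and 13.7% lower at edgeR's unadjusted p (3.51% and 11.9% higher). Those 5 were Rbpj, Notch3, Heyl, Adam10 and Adam17. Rbpj, the DNA-binding partner of the cleaved receptor, stood at 72.3, 58.0 and 63.8 CPM in control mice 1 to 3 and at 46.0, 44.4 and 45.9 CPM in aPU.1KO mice 1 to 3, with no overlap and a log2FC of -0.51 (SE 0.09, edgeR adjusted p = 0.0724). Notch3 had one of -0.99 (SE 0.20) and the target gene Heyl one of -0.86 (SE 0.21). The receptor-cutting proteases Adam10 and Adam17 had log2FC values of -0.33 (SE 0.09) and -0.55 (SE 0.17). Notch3 is also on the list of mural markers, of which 4 of 6 were lower in every aPU.1KO mouse, with sums of 463 to 715 CPM in control and 374 to 501 CPM in aPU.1KO mice. Endothelial sums were 496 to 726 CPM in control and 303 to 643 CPM in aPU.1KO mice, and macrophage sums were lower in the aPU.1KO mice, as given above. The part of mural, endothelial and macrophage cells in the Notch pathway values was not tested.

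Of 13 factors that set or keep imprints, such as DNA methyltransferases, edgeR called 0 at an adjusted p under 0.05 and had 0 higher and 4 lower with an unadjusted p below it, with a median log2FC of -0.19. DESeq2 called 4 of 14 lower and 0 higher, where all genes gave 13.7% lower at edgeR's unadjusted p and 7.48% lower in DESeq2 (11.9% and 3.51% higher). Those 4 were Dnmt3a, Dnmt1, Uhrf1 and Hells. The DNA methyltransferase Dnmt3a stood at 84.4, 65.2 and 81.8 CPM in control mice 1 to 3 and at 54.0, 54.7 and 57.0 CPM in aPU.1KO mice 1 to 3, with no overlap and a log2FC of -0.48 (SE 0.11, edgeR adjusted p = 0.0786). The maintenance methyltransferase Dnmt1 had one of -0.56 (SE 0.17), its cofactor Uhrf1 one of -0.95 (SE 0.22), the helicase Hells one of -0.86 (SE 0.28) and Smchd1 one of -0.19 (SE 0.10). Dnmt1 in control mouse 2 (17.9 CPM) was close to aPU.1KO mouse 3 (17.7 CPM), whereas control mice 1 and 3 were at 27.1 and 26.6 CPM. Among the controls, control mouse 2 also had the lowest macrophage sum and the lowest level of each macrophage marker except Cd163, which was highest there. Its progenitor and fibroblast sum (1417 CPM) was lowest as well. The part of these cells in the values of the imprint factors was not tested.

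Of the 6 CDK inhibitors other than Cdkn1c, edgeR called 0 at an adjusted p under 0.05 and had 0 higher and 1 lower with an unadjusted p below it, with a median log2FC of -0.12, and DESeq2 called 1 lower. With 13.7% of all genes lower at edgeR's unadjusted p and 7.48% in DESeq2, 1 gene of 6 is near the background. That gene was Cdkn1a, the inhibitor p21, at 127, 95.3 and 122 CPM in control mice 1 to 3 and 88.5, 46.5 and 63.4 CPM in aPU.1KO mice 1 to 3, with a log2FC of -0.79 (SE 0.24). Cdkn2c and Cdkn2d had log2FC values of 0.41 (SE 0.18) and 0.34 (SE 0.16).

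**Figure D5:**
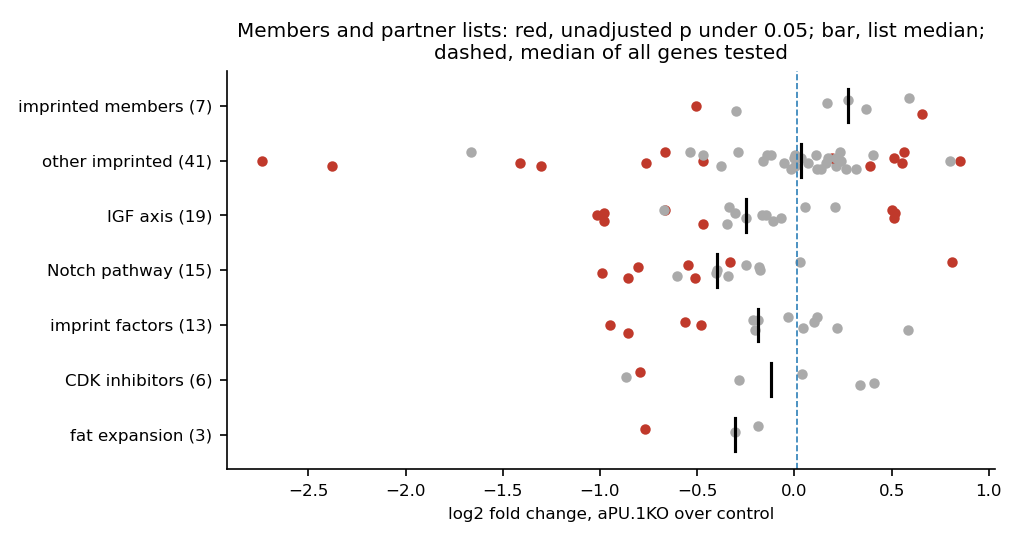
Log2FC of each gene tested in the members and in each list (number tested in brackets), with red for an unadjusted p under 0.05, a black bar for the list median and a dashed line for the median of all genes tested (0.01). The list medians run from -0.40 for the Notch pathway to 0.28 for the members.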

How the data were processed

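RNA-seq of adipocytes from 3 control and 3 aPU.1KO mice was analysed. The authors deposited estimated counts per gene, made with Salmon and summed from transcripts, as whole numbers without normalization. FastQC and GRCm38 are named in the submitters' processing notes, and the Salmon version and annotation release are not given in the sources used here. Identifiers were matched to GENCODE M21 (35102 of 35122 genes). Ages are as labelled (10 to 11 months), and the paper states an older age. The paper describes its control mice as littermates, but no source used here pairs these mice by litter.

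Genes were filtered with filterByExpr, scaled by TMM and tested in R 4.3.3 with edgeR 4.0.16 (glmQLFit and glmQLFTest defaults, Benjamini-Hochberg over 13925 genes). SEs are the absolute log2 fold change divided by the square root of F. Log2 CPM for spread and likeness used a prior count of 2, and likeness was limited to genes with an average log2 CPM of at least 1. With 3 mice a side, the smallest two-sided exact permutation p is 0.1. DESeq2 1.42.0 and limma-voom (limma 3.58.1) were among the alternatives, with other scalings and filters, robust and legacy = FALSE fits, control mouse 1 thinned to the median total, and each mouse left out. DESeq2 with its filtering set for an adjusted p of 0.05 was added after the data were seen. The pipeline was tested on simulated data.

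The members and lists were chosen with earlier results of these data known. From each imprinted or pathway list (cell type marker lists are given as sums), genes with an adjusted p under 0.05 or else the 5 with the lowest p (3 from lists under 10 genes) are named, besides the members, the 5 genes most like Mest, genes whose exons overlap a member's, Spi1, and markers at 0. Cluster neighbours, Slc38a4 and promoter letters were chosen after values were seen. Of the epididymal markers Lcn5, Lcn8 and Defb48 had 0 counts in every library. Replicates differed by far more than sampling noise. Sequences are from RefSeq (GRCm38.p6), with a promoter window for 8 of the 10 members.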

Additional observations from a re-analysis of the deposited data

How the results depend on the processing

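No paired analysis was possible because the labels give the groups no shared replicate numbers. Of 112 log2FC values of the 7 members tested, under 16 alternatives of which 1 was chosen after seeing the data, 110 kept their direction and their side of the threshold. The exceptions were Igf2, which ran from -0.22 (without aPU.1KO mouse 2) to 0.34 when each mouse was left out, and Plagl1, which ran from 0.43 to 0.94 and passed only without control mouse 2. The cause was not tested. Leaving out each mouse in turn gave 0 to 1 members higher at an adjusted p under 0.05, 0 to 4 higher and 0 to 1 lower at an unadjusted p under 0.05, and 1 to 4 whose mice did not overlap and were higher, with the upper values of 1, 4 and 4 higher without control mouse 2, where 8.34% of all genes passed the adjusted threshold, 11% were higher at an unadjusted p under 0.05 and 23.6% were higher without overlap. Over all genes, edgeR called 33 at the adjusted threshold, 0 when control mouse 1 was left out (1718 at an unadjusted p under 0.05), 1193 without control mouse 2 and 5 with at least 10 counts in every library, 146 with no filter on low counts, and DESeq2 called 1833, or 1867 with its filtering set for 0.05.

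For the other imprinted genes, both forms of DESeq2 called 4 higher and 4 lower, and leaving out each mouse gave 0 to 2 higher and 0 to 1 lower at an adjusted p under 0.05 and 4 to 9 lower at an unadjusted p, against 3 lower with at least 10 counts in every library. Their median log2FC was 0.0907 with that filter and 0.00522 to 0.0921 with a mouse left out. At an unadjusted p under 0.05, leaving out each mouse gave 0 to 3 genes of the IGF axis higher, 0 to 1 of the Notch pathway higher and 4 to 10 lower (10 without aPU.1KO mouse 2), 2 to 5 imprint factors lower, 0 to 1 CDK inhibitors higher and 1 to 2 lower, and 0 to 1 fat expansion genes lower. CDK inhibitors had 1 higher with no filter and in both forms of DESeq2, and the fat expansion genes had 0 lower with upper quartile scaling and with legacy = FALSE. The IGF axis median was -0.31 with limma-voom, -0.17 with control mouse 1 thinned and -0.35 to -0.16 with a mouse left out, and that of the imprint factors was -0.25 to -0.0896. The CDK inhibitor median turned to 0.0147 with at least 10 counts in every library and was -0.23 to -0.0519 with a mouse left out, and the fat expansion median was -0.77 to 0.0150, positive without aPU.1KO mouse 2. Per kilobase of the longest transcript, control levels were 373 for Mest, 21.8 for Peg3, 20.5 for Plagl1, 11.2 for Grb10 and 0.0298 CPM for Dlk1. Dlk1 had 1 to 12 counts a library and Igf2 22 to 113, so their values are the least precise of the members.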
